A study of Mus musculus with 6 samples.

Results

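The BCL2 family comprises the proteins that guard or open the outer mitochondrial membrane during apoptosis. The 10 genes followed here were Bcl2, Bcl2l1, Mcl1, Bcl2l11, Bmf, Pmaip1, Bbc3, Bid, Bax and Bak1, chosen by name. Of these, 9 had a probe set whose annotation gave that gene alone, among 19938 genes named in this way on the array. Each of the 9 had 1 such probe set, and each read above 6.83, the 50th percentile of all values, on every array. Bax was not analysed here.

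The RNA came from splenic CD8+ T cells of C57BL/6 females carrying the Pmel-1 T cell receptor transgene, whose receptor recognises the melanoma antigen gp100. All 6 samples carried that transgene, 1 Affymetrix array, numbered as in the labels, was run per sample, and the samples formed 3 groups of 2. The naive group was collected fresh and sorted for CD8 and Thy1.1. The IL-2 and IL-12 groups saw gp100 during 4 days of priming and their cytokine, IL-2 or IL-12, during 6 days, and the labels name no sort of these cells. Antigen, cytokine, fresh collection and the named sort differed together between naive and primed cells, so their parts cannot be told apart. The age of the mice, and whether replicates stem from different mice or cultures, are not given in the sources used here, so p-values may measure technical spread only. The study set the cytokines side by side to look for genes and pathways that tumour control by transferred T cells requires.

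As background, BCL2, BCL-XL (the product of Bcl2l1) and MCL1 hold apoptosis back by binding its activators. BH3-only proteins such as BIM (Bcl2l11), BMF, NOXA (Pmaip1), PUMA (Bbc3) and BID relay stress or cytokine loss by occupying those guardians. BAK and BAX then form the pores through which cytochrome c leaves the mitochondrion. Naive T cells are known to rely on IL-7 for Bcl2, activated T cells on Bcl2l1 and Mcl1, and BIM is known for removing effector T cells when a response ends.

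Values are log2 RMA values, so a difference of 1 is a 2-fold difference, and they are comparable between arrays for 1 gene but not between genes. Within a group, the correlation between arrays across the 11147 tested genes was 0.986 to 0.994, and genes are not independent replicates. Fold changes come from a limma fit over those genes, with its standard error (SE), and a call means a Benjamini-Hochberg adjusted p under 0.05. With 2 arrays per group, separation of the arrays alone is common: 69.5% of all tested genes had groups that did not overlap between IL-12 and IL-2 cells, 73.9% between IL-2 and naive cells and 79.2% between IL-12 and naive cells. CD8 T cell markers were high on every array, with Cd8a between 12.12 and 12.66 and Cd3e between 12.76 and 13.31.

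Between IL-12 and IL-2 cells, 4 of the 9 genes passed the test, Pmaip1 and Bid higher and Bcl2 and Bmf lower in IL-12 cells, against 20.8% of all tested genes (9.82% higher and 11% lower). Between IL-2 and naive cells, 7 of 9 passed: Pmaip1, Bak1, Bcl2l1 and Bbc3 were higher, and Bcl2, Bid and Mcl1 were lower in IL-2 cells. There 45.7% of all tested genes were called, 25.8% higher and 19.9% lower. Between IL-12 and naive cells, 7 of 9 passed: Pmaip1, Bak1, Bcl2l1 and Bbc3 were higher, and Bcl2, Bmf and Mcl1 were lower in IL-12 cells, against 57.9% of all genes (31.2% higher and 26.7% lower). Bcl2l11 passed in none of the 3 comparisons. The median log2 fold change of the 9 genes was -0.08, 0.25 and 0.17 in these comparisons, where the median of all tested genes was 0.02, 0.01 and 0.04.

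Promoter windows of 3 members are shown: Bcl2, which fell in steps, Bcl2l11, which passed no test, and Bbc3, which rose in both primed groups. Their course does not single them out, since Pmaip1, Bak1 and Bcl2l1 also rose in both primed groups. Of the 8 members whose windows were searched, only Bcl2l11 and Bbc3 had a FOXO core, so the windows shown do not stand for the family. The promoter of Pmaip1 was left out of the search, so whether it holds any of these motifs was not tested. Where a gene had several windows, the 1 with a FOXO core is printed. Each line gives the 250 bases before a RefSeq transcript start in GRCm38.p6, read 5′ to 3′ along the gene. Capitals mark matches, on either strand, to GGGCGG (the GC box bound by SP factors) in Bcl2 and to GTAAACA (the core bound by FOXO factors) in the others.
Bcl2, chr1:106714291-106714540, minus strand: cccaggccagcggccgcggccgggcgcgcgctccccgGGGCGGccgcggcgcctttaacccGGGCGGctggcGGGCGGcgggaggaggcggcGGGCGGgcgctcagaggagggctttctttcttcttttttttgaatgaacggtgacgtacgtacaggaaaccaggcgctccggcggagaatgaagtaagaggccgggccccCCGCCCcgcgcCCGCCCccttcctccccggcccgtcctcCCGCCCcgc
Bcl2l11, chr2:128125788-128126037, plus strand: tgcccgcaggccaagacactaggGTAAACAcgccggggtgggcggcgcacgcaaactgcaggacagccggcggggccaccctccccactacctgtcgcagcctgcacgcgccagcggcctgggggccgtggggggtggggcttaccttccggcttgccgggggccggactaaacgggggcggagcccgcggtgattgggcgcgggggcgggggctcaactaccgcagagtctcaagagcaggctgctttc
Bbc3, chr7:16310011-16310260, plus strand: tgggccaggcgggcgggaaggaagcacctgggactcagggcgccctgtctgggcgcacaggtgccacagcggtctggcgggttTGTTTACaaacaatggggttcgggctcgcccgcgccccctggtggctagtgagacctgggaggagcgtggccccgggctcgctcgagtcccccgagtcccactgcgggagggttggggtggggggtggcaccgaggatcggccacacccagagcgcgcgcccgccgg
The Bcl2 window held 7 GC boxes, the Bcl2l11 window 1 FOXO core 227 bases before the start, and the Bbc3 window 1 core 167 bases before the start. The printed Bcl2l11 window also held 3 GC boxes and the printed Bbc3 window 1, which are not marked. Of the windows not printed, that of Bcl2l11 held 2, and those of Bbc3 held 5 and 7. RefSeq windows were used for 8 members, Pmaip1 not among them, 15 windows in all, 2 of which overlap at Bbc3. The FOXO core lay in 2 of the 15 windows and in 3.16% of 32817 windows of all genes. The GC box lay in 8 of 15 windows, from 5 genes, and in 32.7% of all windows. TTCNNNGAA, the palindrome bound by STAT factors, lay in 0 of 15 and in 7.01% of all windows. These are matches of letters only, and no binding was measured.

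Among the guardians, Bcl2 (probe set 10357043) read 11.82 and 11.86 on the naive arrays, 10.96 and 11.26 on the IL-2 arrays, and 10.37 and 9.93 on the IL-12 arrays. The 3 groups did not overlap, and the order was naive, IL-2, IL-12. IL-12 cells were 1.95-fold below IL-2 cells, a log2 difference of -0.96 ± 0.16 (SE of the fit, with n = 2 in each group; limma adjusted p = 0.0041). IL-2 cells were 1.66-fold below naive cells (limma adjusted p = 0.00568) and IL-12 cells 3.24-fold below (limma adjusted p = 3.23e-05). The difference between IL-12 and IL-2 cells lost its call without IL-2 array 2 (limma adjusted p = 0.0509), and that between IL-2 and naive cells without IL-2 array 1 (0.0578). In bulk RNA such as this, fewer cells of a type and less RNA per cell cannot be told apart.

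Bcl2l1, which encodes BCL-XL, went the other way in the primed cells. It read 7.99 and 8.22 on the naive arrays, 8.67 and 8.69 on the IL-2 arrays, and 8.61 and 8.41 on the IL-12 arrays. Both primed groups lay above the naive arrays, by 1.49-fold in IL-2 cells (log2 fold change 0.57 ± 0.12; limma adjusted p = 0.00505) and 1.33-fold in IL-12 cells (0.41 ± 0.12; limma adjusted p = 0.019). The rise in IL-12 cells lost its call without naive array 1 (limma adjusted p = 0.0758) or IL-12 array 1 (0.14). IL-12 and IL-2 cells were not called different, with a 95% confidence interval from -0.45 to 0.11 on the log2 scale (limma adjusted p = 0.375).

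Mcl1, which encodes a short-lived guardian that T cells need at every stage, varied least among the guardians. Its values were 11.22 and 11.37 in naive, 10.98 and 11.03 in IL-2 and 10.95 and 10.99 in IL-12 cells. The primed arrays lay just below the naive ones, 1.22-fold for IL-2 (limma adjusted p = 0.0474) and 1.25-fold for IL-12 cells (limma adjusted p = 0.0237). Both calls were weak. In the counts that follow, leaving out an array of the group not compared repeats the fit of the compared groups alone. Those alternatives are therefore not separate checks. The IL-2 call was lost under 10 of 16 alternatives, including each array centred on its median (limma adjusted p = 0.246), a replicate block (0.0558) and leaving out naive array 2 (0.105), IL-2 array 1 (0.216), IL-2 array 2 (0.144) or either IL-12 array (0.0808). The IL-12 call was lost under 7, including median centring (0.174) and leaving out naive array 2 (0.0579), either IL-2 array (0.0507), IL-12 array 1 (0.111) or IL-12 array 2 (0.0851). The IL-12 and IL-2 arrays overlapped, and the interval of their difference ran from -0.27 to 0.20.

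**Figure D1:**
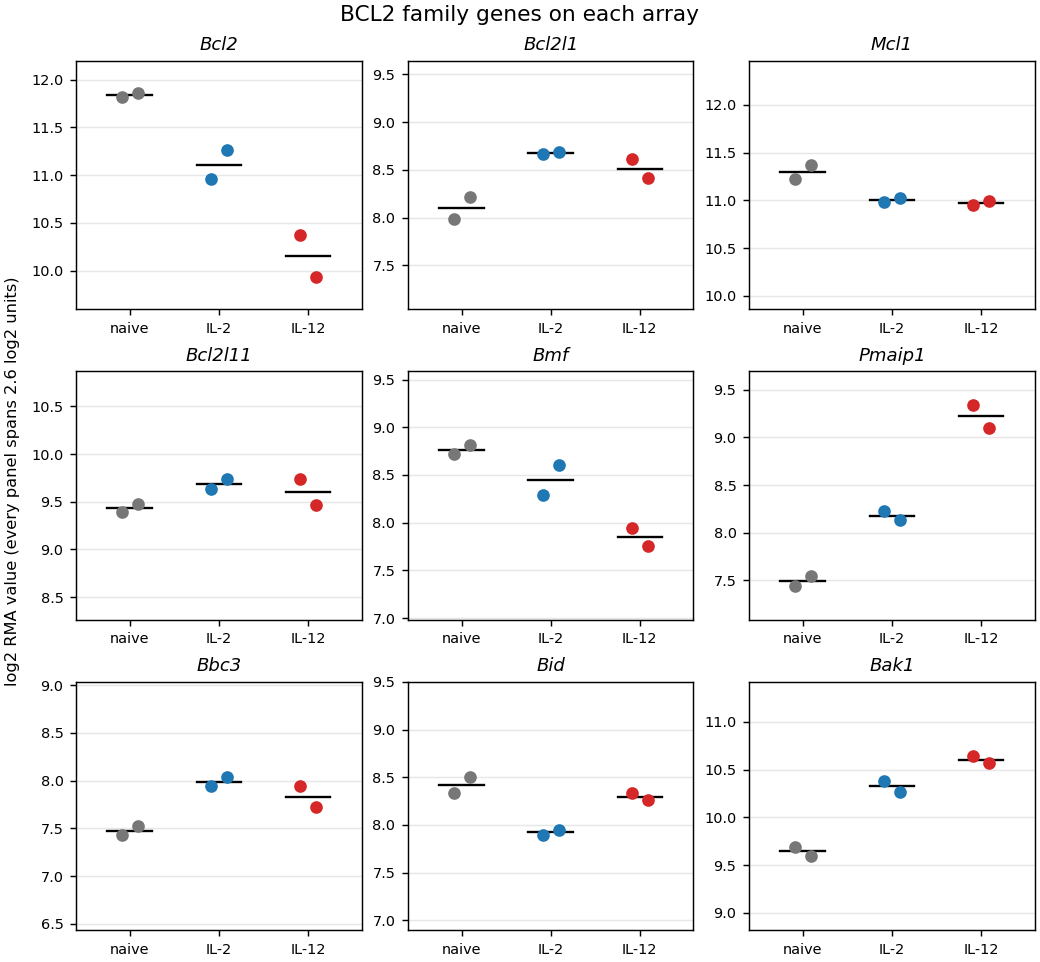
Log2 RMA value (vertical axis, the same span of 2.6 log2 units in every panel) of 9 BCL2 family genes on each array of naive, IL-2 and IL-12 cells; points are arrays and bars are group means. Bcl2 stepped down from 11.84 to 11.11 to 10.15 and Pmaip1 stepped up from 7.50 to 8.18 to 9.22, while Bcl2l11 stayed between 9.39 and 9.74.

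Of the BH3-only genes, Pmaip1 (probe set 10456357) differed most. It encodes NOXA, which binds MCL1 and A1 rather than BCL2. It read 7.44 and 7.55 on the naive arrays, 8.23 and 8.13 on the IL-2 arrays and 9.34 and 9.10 on the IL-12 arrays. The groups did not overlap, in the reverse order of Bcl2. IL-12 cells were 2.06-fold above IL-2 cells (log2 fold change 1.04 ± 0.12; limma adjusted p = 0.000577). IL-2 cells were 1.6-fold above naive cells (limma adjusted p = 0.00178), and IL-12 cells were 3.30-fold above them (limma adjusted p = 4.92e-06). It was the only member called in all 3 comparisons under all 16 alternatives.

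Bmf, whose product is held at the cytoskeleton by a dynein light chain and is known to act when survival signals drop, fell alongside Bcl2. It read 8.72 and 8.81 in naive, 8.29 and 8.61 in IL-2 and 7.94 and 7.76 in IL-12 cells. No group overlapped another, with the IL-12 arrays lowest. IL-12 cells were 1.51-fold below IL-2 cells (log2 fold change -0.60 ± 0.13; limma adjusted p = 0.0144) and 1.88-fold below naive cells (-0.91 ± 0.13; limma adjusted p = 0.000394). The difference from IL-2 cells lost its call without IL-2 array 2 (limma adjusted p = 0.139) or IL-12 array 2 (0.108). IL-2 and naive cells were not called different, at -0.32 ± 0.13 (limma adjusted p = 0.0786), but were without IL-2 array 2 (0.0476).

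Bcl2l11, which encodes BIM, read 9.39 and 9.48 in naive, 9.63 and 9.74 in IL-2 and 9.74 and 9.47 in IL-12 cells. The IL-12 arrays overlapped those of both other groups. Its largest difference was 0.25 ± 0.12 between IL-2 and naive cells (limma adjusted p = 0.128). The 95% interval of the difference between IL-12 and IL-2 cells ran from -0.36 to 0.20, so a change of 1.5-fold in either direction lay outside it. A single probe set summarises the gene, and BIM isoforms were not resolved.

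Bbc3, which encodes PUMA, a p53 target that binds every guardian, was higher in both primed groups. It read 7.43 and 7.52 in naive, 7.94 and 8.04 in IL-2 and 7.94 and 7.72 in IL-12 cells, so that the primed groups overlapped each other but not the naive arrays. The rise was 1.43-fold in IL-2 cells (log2 fold change 0.51 ± 0.12; limma adjusted p = 0.00641) and 1.28-fold in IL-12 cells (0.35 ± 0.12; limma adjusted p = 0.0268). The first call was lost without IL-2 array 2 (limma adjusted p = 0.0608). The second was lost without naive array 1 (0.076), without IL-12 array 1 (0.197) and with array weights (0.0573).

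Bid, whose product is cleaved by caspase-8 or granzyme B to link death receptors and cytotoxic granules to mitochondria, was lowest in IL-2 cells. It read 8.33 and 8.50 in naive, 7.90 and 7.95 in IL-2 and 8.33 and 8.26 in IL-12 cells. The IL-2 arrays lay apart from all others, and the naive and IL-12 arrays overlapped. IL-2 cells were 1.41-fold below naive cells (log2 fold change -0.49 ± 0.11; limma adjusted p = 0.00569), and IL-12 cells were 1.29-fold above IL-2 cells (0.37 ± 0.11; limma adjusted p = 0.0401). The summed linear level of 12 B cell markers had the same order of groups (6517 to 6521 in naive, 1379 to 1405 in IL-2 and 2917 to 2955 in IL-12 cells). That of 9 myeloid and dendritic cell markers had it too, and the part of these cells in the differences of Bid was not tested. The call of Bid between IL-12 and IL-2 cells was lost under 6 of 15 alternatives. These were no filter (limma adjusted p = 0.0541), median centring (0.0643) and leaving out IL-2 array 1 (0.204), IL-2 array 2 (0.175), IL-12 array 1 (0.191) or IL-12 array 2 (0.131). The call between IL-2 and naive cells was lost without IL-2 array 1, where the log2 fold change was -0.47.

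Bak1, the pore-forming member measured here, rose in both primed groups. It read 9.69 and 9.60 in naive, 10.38 and 10.27 in IL-2 and 10.64 and 10.57 in IL-12 cells, with no overlap between groups. The rise over naive cells was 1.61-fold in IL-2 cells (log2 fold change 0.68 ± 0.10; limma adjusted p = 0.000843) and 1.95-fold in IL-12 cells (0.97 ± 0.10; limma adjusted p = 6.8e-05). Both calls held under all 16 alternatives. IL-12 cells lay 0.28 ± 0.10 above IL-2 cells, which was not called (limma adjusted p = 0.0868). It was called with array weights (0.0311) and with the compared groups alone (0.0453), a fit that leaving out either naive array repeats.

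**Figure D2:**
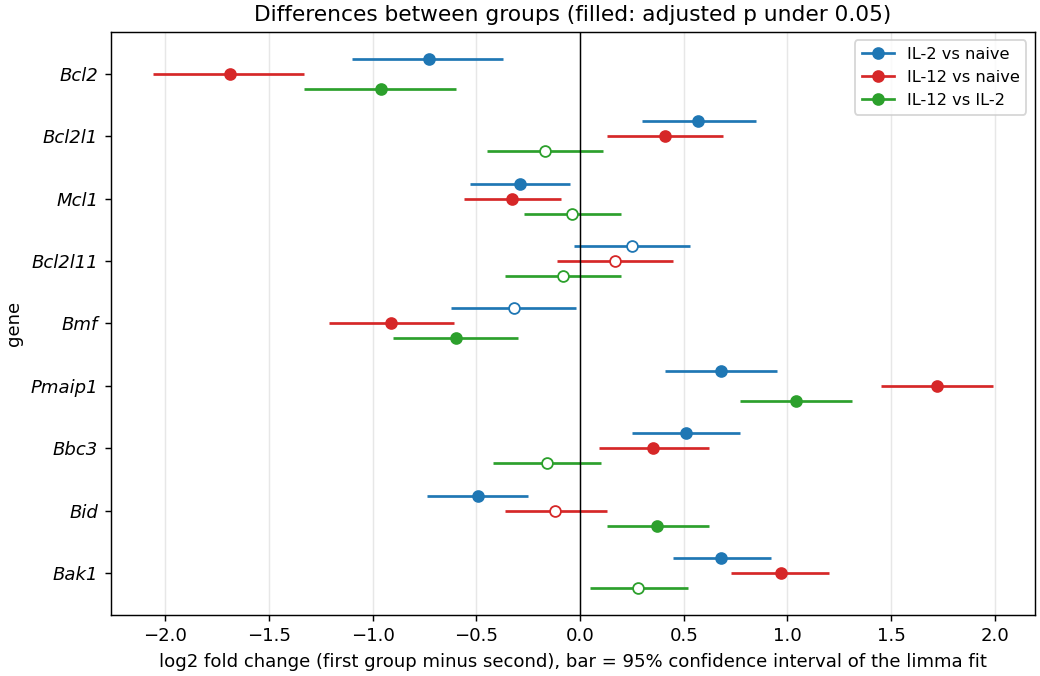
Log2 fold change (horizontal axis) of each gene in 3 comparisons, with the 95% confidence interval of the limma fit as a bar; filled points have an adjusted p under 0.05. Bcl2 lay at -1.69 and Pmaip1 at 1.72 for IL-12 against naive cells, and all intervals of Bcl2l11 held 0.

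Because BIM is known to be held in check by BCL2, their values were also set against each other on the same arrays. The log2 value of Bcl2 minus that of Bcl2l11 was 2.43 and 2.38 on the naive arrays, 1.34 and 1.51 on the IL-2 arrays, and 0.62 and 0.46 on the IL-12 arrays. The group means were 2.41 ± 0.03, 1.42 ± 0.13 and 0.54 ± 0.11 (SD, n = 2). Their difference was -0.88 between IL-12 and IL-2 cells, -0.98 between IL-2 and naive cells and -1.87 between IL-12 and naive cells. Bcl2l11 passed in no comparison, so these values largely restate the change of Bcl2 alone. The log2 fold changes of Bcl2 were -0.96, -0.73 and -1.69 in the same comparisons. The difference was smallest on the IL-12 arrays and the groups did not overlap. It is a description, with no test, and since the probe sets have no common scale it is not a ratio of amounts.

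Among 18 other BCL2 family genes, 15 had a probe set and 10 could be tested. Between IL-12 and IL-2 cells only Bnip1 of the 10 passed (10% against 20.8% of all genes), higher by 0.39 ± 0.11. In IL-2 against naive cells 2 rose (20% against 45.7%), Bnip1 by 0.35 ± 0.11 and Bnip2 by 0.33 ± 0.10. In IL-12 against naive cells 4 rose and none fell (40% against 57.9%): Bnip1 (1.67-fold), Bnip2 (1.39-fold), Bnip3 (4.74-fold) and Bcl2l13 (1.33-fold). Bnip3, a mitophagy receptor known as a low-oxygen target, was unequal within IL-12 cells, with 10.78 on array 1 and 8.17 on array 2, against 7.11 and 7.35 in naive cells (limma adjusted p = 0.0156). That call was lost without naive array 1 (0.0777) or naive array 2 (0.0504) and with trend and robust estimation (0.0642). The BH3-only genes Bad, Bik and Hrk and the pore-forming relative Bok passed in none of the comparisons. The call of Bnip1 between IL-12 and IL-2 cells (limma adjusted p = 0.0377) was lost under 6 alternatives, with adjusted p up to 0.235 without IL-12 array 2. The others were no filter (0.0504), median centring (0.0614) and leaving out IL-2 array 1 (0.15), IL-2 array 2 (0.214) or IL-12 array 1 (0.0819). In IL-2 against naive cells Bnip1 lost its call without naive array 1 (0.0982), IL-2 array 1 (0.163) or IL-2 array 2 (0.112), and with array weights (0.0502). Bnip2 lost it there without naive array 1 (0.0752), IL-2 array 1 (0.126), IL-2 array 2 (0.139) or either IL-12 array (0.053), and with quantile normalization (0.0761). Bcl2l13 lost its call without naive array 1 (0.0982), either IL-2 array (0.0505), IL-12 array 1 (0.0821) or IL-12 array 2 (0.112).

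Downstream of the mitochondrion, 11 apoptosome and caspase genes were tested. Apaf1, the scaffold of the apoptosome, was 1.98-fold higher in IL-2 and 2.16-fold higher in IL-12 than in naive cells (limma adjusted p = 6.66e-05 and 2.03e-05). It read 9.09 and 9.06 on the naive arrays against 10.06 to 10.21 on the 4 primed arrays. In IL-12 against naive cells 6 of 11 rose and 1 fell (63.6% against 57.9% of all genes), a median of 0.59. Cycs, which encodes cytochrome c, was 1.96-fold, Htra2 1.75-fold and Aifm1, a mitochondrial oxidoreductase, 1.64-fold higher there. Cycs had 3 probe sets, and its log2 fold change in IL-12 against naive cells ran from 0.57 to 1.09 over the alternatives. In IL-2 against naive cells it was 0.29 by the probe set of highest mean and -0.17 by the mean of probe sets, called in neither. Cycs was also 1.61-fold higher in IL-12 than in IL-2 cells (limma adjusted p = 0.00409), the only 1 of 11 called there (9.09% against 20.8%), a call lost without IL-2 array 2 (0.0593). In IL-2 against naive cells 3 of 11 rose (27.3% against 45.7%), with Aifm1 and Htra2 both at 0.50 on the log2 scale. Aifm1 lost that call without IL-2 array 1 (limma adjusted p = 0.0889), and Htra2 without IL-2 array 1 (0.0768) or IL-2 array 2 (0.0813). Casp9, the initiator caspase of the apoptosome and the gene that fell in IL-12 against naive cells (limma adjusted p = 0.0432), read 8.26 and 8.36 in naive, 8.04 and 8.14 in IL-2 and 8.07 and 7.99 in IL-12 cells.

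Among 6 tested inhibitor of apoptosis (IAP) genes, Naip2 and Xiap were lower in IL-12 than in IL-2 cells, and 0 were higher (33.3% against 20.8% of all genes). Naip2, better known as an inflammasome sensor, was 1.86-fold lower (limma adjusted p = 0.00403). Xiap, which binds caspases directly, was 1.29-fold lower (limma adjusted p = 0.0451), which failed the test without IL-2 array 1 (0.171), IL-2 array 2 (0.229), IL-12 array 1 (0.267) or IL-12 array 2 (0.0702). It was also lost with no filter (0.061), quantile normalization (0.0903) and median centring (0.0878). Against naive cells Birc5, which encodes survivin and also serves mitosis, was called higher in both primed groups. It read 6.63 and 6.56 in naive, 10.81 and 10.77 in IL-2 and 10.84 and 10.93 in IL-12 cells. It too entered the test through the primed arrays alone, since its naive values lay under 6.83. Birc3 was 1.56-fold and Birc6 1.62-fold lower in IL-2 than in naive cells. In IL-2 against naive cells 1 rose and 2 fell (50% against 45.7% of all genes). In IL-12 against naive cells 1 rose and 4 of 6 fell (83.3% against 57.9%), among the latter Birc3 (1.37-fold), Birc6 (1.41-fold) and Naip2 (1.47-fold). Birc3 lost that call without naive array 1 (limma adjusted p = 0.0614), IL-12 array 1 (0.0667) or IL-12 array 2 (0.0694). Birc6 lost it without naive array 1 (0.112) or IL-12 array 2 (0.144) and with median centring (0.052), and the IL-2 call of Birc6 was lost without IL-2 array 2 (0.0537). Naip2 lost its call against naive cells without naive array 1 (0.0568) or IL-12 array 1 (0.0804).

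Of 12 tested death receptor pathway genes, which feed into the family through BID, 3 were higher and 0 lower in IL-12 than in IL-2 cells, which is 25% against 20.8% of all tested genes. Fasl, the ligand of FAS, read 6.59 and 6.52 in naive, 7.53 and 7.97 in IL-2 and 8.84 and 9.28 in IL-12 cells. It stepped up as Pmaip1 did, 2.47-fold from IL-2 to IL-12 cells. Tnfrsf1b, a TNF receptor without a death domain, was 2.18-fold and Tnfrsf10b, the mouse TRAIL receptor, 1.54-fold higher in IL-12 than in IL-2 cells (limma adjusted p = 0.000143 and 0.00563). Tnfrsf10b lost that call without IL-2 array 2 (0.0637). Against naive cells 3 genes rose and 4 fell in each primed group (58.3%, against 45.7% and 57.9% of all genes). Casp8, the initiator caspase that cleaves BID, was 1.54-fold lower in IL-2 and 1.48-fold lower in IL-12 cells, and Cflar, its inhibitor, 1.44-fold and 1.59-fold lower. Cflar had 3 probe sets. Over the alternatives its log2 fold change ran from -0.80 to -0.39 in IL-2 and -1.12 to -0.53 in IL-12 against naive cells. Fas was 1.56-fold lower in IL-2 cells (limma adjusted p = 0.0121), which failed the test without naive array 1 (0.0609) or IL-2 array 2 (0.0979). Cflar lost its IL-2 call without IL-2 array 2 (0.0531). Fasl was called higher in both primed groups than in naive cells, where it lay under 6.83, so that it entered the test through the primed arrays alone and no fold is given. Tnfrsf1b was 1.92-fold higher in IL-12 than in naive cells.

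The list of regulators of BCL2 family transcription holds transcription factors and also Mdm2, a ubiquitin ligase acting on p53, and Chac1, a glutathione-degrading enzyme of the stress response. Of its 13 tested genes, Stat5a, Atf4, E2f1 and Chac1 were higher and Foxo1, Rel and Bach2 lower in IL-12 than in IL-2 cells (53.8%, against 20.8% of all tested genes). In IL-2 against naive cells 2 rose and 2 fell (30.8% against 45.7%), and in IL-12 against naive cells 4 rose and 4 fell (61.5% against 57.9%). Foxo1, a factor of quiescent T cells, read 11.84 and 11.91 in naive, 11.42 and 11.44 in IL-2 and 10.94 and 10.80 in IL-12 cells. It was 1.47-fold lower in IL-12 than in IL-2 cells (limma adjusted p = 0.00692) and 2-fold lower than in naive cells (limma adjusted p = 5.51e-05). Bach2, a repressor of effector genes, was 1.84-fold lower in IL-12 than in IL-2 cells, 2.18-fold lower in IL-2 than in naive cells and 4.01-fold lower in IL-12 than in naive cells. Both genes followed the order of Bcl2 over the groups, naive, IL-2, IL-12. That order is not particular to them, since the group means of Mcl1, Bmf, Rel, Cflar and Casp9 had it too. Rel, an NF-kappaB subunit known to raise Bcl2l1, was 1.43-fold lower in IL-12 than in IL-2 cells (limma adjusted p = 0.0147). Stat5a, which carries IL-2 and IL-7 signals, was 1.79-fold higher in IL-12 than in IL-2 cells (limma adjusted p = 0.00189) and 1.46-fold higher than in naive cells (limma adjusted p = 0.00394).

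E2f1 and Atf4 rose in both primed groups. E2f1, an S phase factor, was 3.32-fold higher in IL-2 and 4.39-fold higher in IL-12 than in naive cells. Atf4, the integrated stress response factor known to raise Pmaip1, was 1.29-fold and 1.81-fold higher (limma adjusted p = 0.0374 and 0.000357). Several of these calls depended on single arrays or on the processing. With all arrays kept, E2f1 lost its call between IL-12 and IL-2 cells with no filter (limma adjusted p = 0.05). Quantile normalization (limma adjusted p = 0.0578) and median centring (0.0611) lost it too. Between IL-12 and IL-2 cells E2f1 lost its call without any 1 of those 4 arrays (limma adjusted p from 0.0965 to 0.258), and Atf4 without IL-2 array 2 (0.2), IL-12 array 1 (0.0683) or IL-12 array 2 (0.142). In the same comparison Foxo1 lost its call without IL-2 array 1 (limma adjusted p = 0.0554), IL-2 array 2 (0.0752) or IL-12 array 2 (0.0688). Bach2 lost it without IL-2 array 1 (0.101), IL-2 array 2 (0.117) or IL-12 array 2 (0.144), and Rel without IL-2 array 1 (0.138), IL-12 array 1 (0.0711) or IL-12 array 2 (0.0892). Against naive cells in the IL-2 group, Foxo1 (1.36-fold lower; limma adjusted p = 0.00754) lost its call without IL-2 array 1 (0.0617). Atf4 lost its IL-2 call without naive array 1 (0.0827), naive array 2 (0.0612), IL-2 array 1 (0.293) or either IL-12 array (0.0574), with no filter (0.0507) and with array weights (0.0832).

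**Figure D3:**
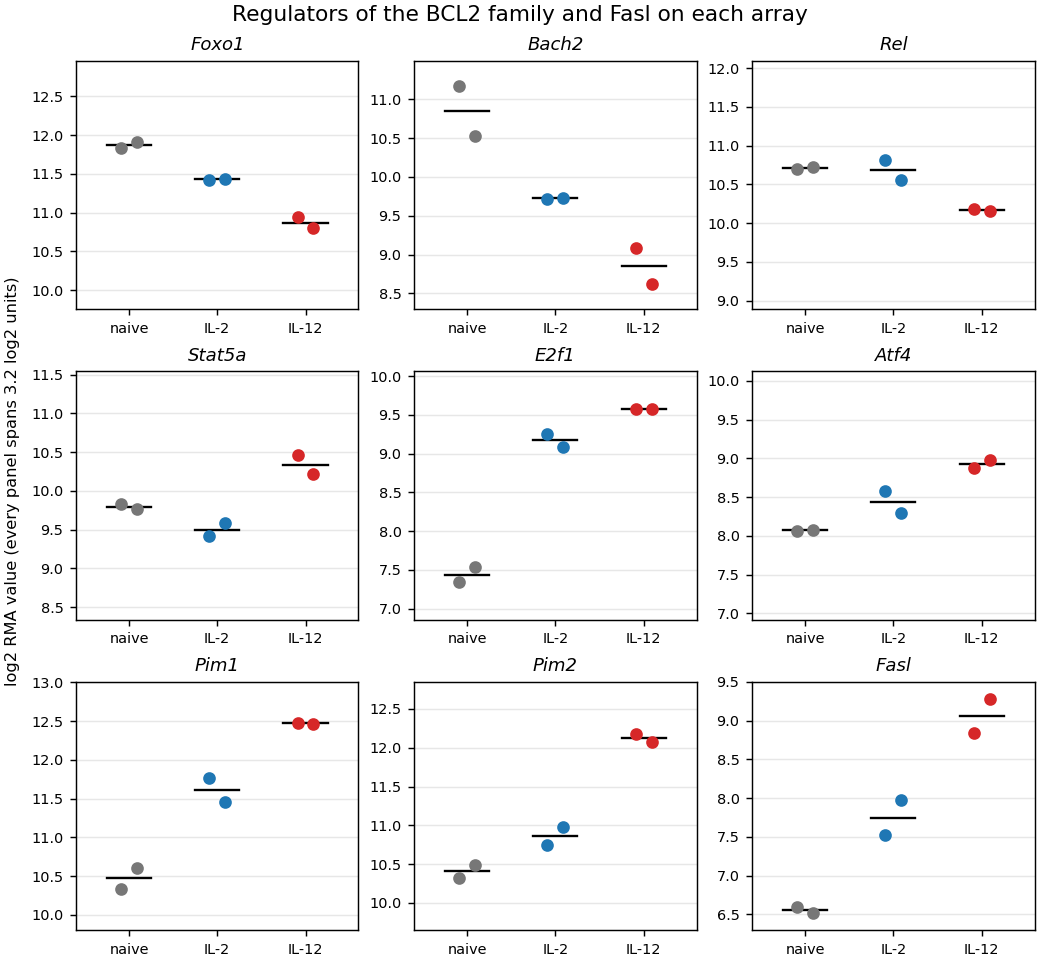
Log2 RMA value (vertical axis, 3.2 log2 units in every panel) of 6 transcription factor genes, the kinase genes Pim1 and Pim2 and the death ligand gene Fasl on each array; points are arrays and bars are group means. Foxo1 and Bach2 stepped down from naive to IL-2 to IL-12 cells, and Pim1 stepped up from 10.47 to 11.60 to 12.47.

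Of 16 genes for the handling of BCL2 family proteins, 2 were higher and 0 lower in IL-12 than in IL-2 cells, or 12.5% against 20.8% of all tested genes. These were the kinase genes Pim1 and Pim2, whose products phosphorylate and inactivate the BH3-only protein BAD. Pim2 read 10.32 and 10.49 in naive, 10.75 and 10.98 in IL-2 and 12.18 and 12.08 in IL-12 cells, 2.40-fold higher in IL-12 than in IL-2 cells (limma adjusted p = 0.00024). Pim1 was 1.83-fold higher (limma adjusted p = 0.00331), and it was 2.19-fold higher in IL-2 and 4.00-fold higher in IL-12 than in naive cells. Pim2 was 3.30-fold higher in IL-12 than in naive cells. Against naive cells 9 of 16 rose and 2 fell in IL-2 cells, and 10 rose and 3 fell in IL-12 cells, with medians of 0.54 and 0.70. That is 68.8% against 45.7% and 81.2% against 57.9% of all genes. The genes of the outer membrane channels Vdac1 (2.43-fold and 2.52-fold) and Vdac3 (2.10-fold and 2.46-fold) were higher in IL-2 and in IL-12 cells. Dynll2, the light chain gene whose product holds BMF, was 2.15-fold higher in IL-2 and 2.31-fold higher in IL-12 cells.

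**Figure D4:**
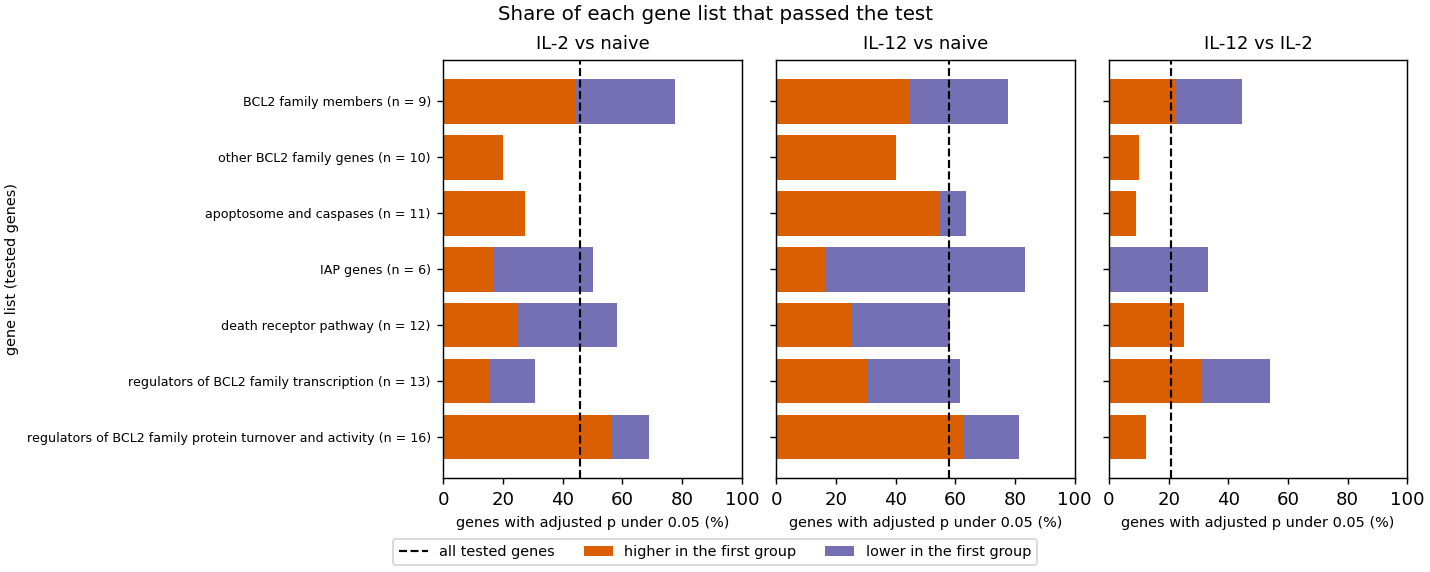
Percent of the tested genes of 7 gene lists (vertical axis, number tested in brackets) with an adjusted p under 0.05 in each comparison, split by direction; the dashed line is the percent of all tested genes. The 9 members lay at 44.4% against 20.8% for IL-12 against IL-2 cells, at 77.8% against 45.7% for IL-2 against naive cells and at 77.8% against 57.9% for IL-12 against naive cells.

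The genes whose profiles over the 6 arrays lay nearest to those of the 3 members with the widest range were found by Euclidean distance in log2 units, after each gene was centred on its own mean. For Bcl2 they were Slfn1 (0.18), a gene of quiescent T cells, Rnf167 (0.24) and the antiproliferative gene Btg2 (0.24). Slfn1 read 12.01 and 12.19 in naive, 11.21 and 11.36 in IL-2 and 10.52 and 10.12 in IL-12 cells. For Pmaip1 they were the glycolysis gene Pgam1 (0.21), the G protein gene Gnaq (0.21) and the amino acid transporter gene Slc7a5 (0.23). For Bak1 they were Vars (0.13), a valyl-tRNA synthetase gene, Batf3 (0.15) and Cdc16 (0.15), a subunit gene of the anaphase-promoting complex. These are the nearest of the tested genes over 3 groups, with predicted genes and clone names left out, and describe likeness only.

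Markers of other cells differed between the groups in which these genes were compared. The summed level of 12 B cell markers, on the linear scale, was 6517 to 6521 on the naive arrays, 1379 to 1405 on the IL-2 arrays and 2917 to 2955 on the IL-12 arrays. All 12 fell in both primed groups against naive cells (100%, against 45.7% and 57.9% of all tested genes). Between IL-12 and IL-2 cells 10 were higher (83.3% against 20.8%), and their summed level was lowest in IL-2 cells. Blk, Ebf1, Cr2 and Fcer2a read under 6.83 on every primed array. They entered the test through the naive arrays alone, which favours a fall. Bid had the same order of group means as the B cell sum, as had Birc3, Birc6, Fas and Casp8. Bcl2 and Bmf were highest in naive cells, as the B cell sum was, and lowest in IL-12 cells. Fcer2a was an exception among the markers, with 5.89 in IL-2 and 5.83 in IL-12 cells. The summed level of 9 myeloid and dendritic cell markers was 2340 to 2625 in naive, 599 to 696 in IL-2 and 790 to 825 in IL-12 cells. Of 7 tested, 6 fell in IL-2 and 5 fell and 1 rose in IL-12 against naive cells (85.7% each, against 45.7% and 57.9% of all tested genes). Lyz2, Csf1r, Mpeg1 and Adgre1 entered the test through the naive arrays alone, which favours a fall. Itgam, the 1 that rose, entered it through the IL-12 arrays alone. The myeloid and dendritic cell sum had the same order of groups as the B cell sum. The part of these cells in the differences of the members, Bid included, and of the other genes was not tested. The summed level of 4 natural killer cell markers was 421 to 522 in naive, 604 to 655 in IL-2 and 442 to 446 in IL-12 cells. Ncr1, Klrb1c and Klra8 read under 6.83 on every array, and Klrc1, which activated CD8 T cells also express, rose 1.7-fold from naive to IL-2 cells. That of 4 helper and regulatory T cell markers was 432 to 433, 787 to 834 and 693 to 735. Cd4 and Cd40lg read under 6.83 on every array and Foxp3 passed no test. Zbtb7b was 3.66-fold higher in IL-2 and 2.9-fold higher in IL-12 than in naive cells. The summed level of 10 CD8 T cell markers was 51696 to 55395 in naive, 51623 to 51907 in IL-2 and 43055 to 44154 in IL-12 cells. Of the 10, 4 were lower and 1 higher in IL-12 than in IL-2 cells (50% against 20.8% of all tested genes).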

How the data were processed

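Total RNA of 6 samples was hybridised to Affymetrix arrays. The authors deposited a log2 value per probe set (35556 in all). Per the submitters' processing notes the tool was RMA, which corrects background, normalises arrays by quantiles and summarises probes. Version, settings and genome build are not given in the sources used here. A shift common to most genes would be lost in that normalisation.

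Probe sets were named from the platform annotation, which can be old: 21789 carried 1 symbol, 1621 several (left out of the tests) and 12146 were not listed. Symbols were updated through GRCm38.p6 gene identifiers, of which 21698 matched. Where a gene had several probe sets, that of highest mean stood for it. Testing required a value over the 50th percentile (6.83) on 2 or more of 6 arrays, met by 11147 of 19938 genes.

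All arrays were fitted with limma 3.58.1 in R 4.3.3 (1 mean per group, 3 residual and 5.62 prior degrees of freedom), two-sided, with Benjamini-Hochberg adjustment over all tested genes. The fit was tested on simulated data. Groups came from the labels. The number of arrays limits the precision.

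The members, the 6 other gene lists and the 6 marker lists were chosen with earlier results of these data known, so their counts are descriptions. Named were all members, up to 4 called genes with the smallest adjusted p per list and comparison, and the 3 nearest profiles of 3 members. Others (Cd8a, Cd3e, Casp9, Bad, Bik, Hrk, Bok, Bcl2a1c, Ncr1, Klrb1c, Klra8, Klrc1, Cd4, Cd40lg, Foxp3, Zbtb7b, Fcer2a, Chac1, Mdm2) were named after their values were seen. Alternatives were no filter, the 75th percentile, the mean or most variable probe set, quantile normalization, median centring, trend and robust estimation, array weights, the compared groups alone, a replicate block and leaving out each array. For each comparison, leaving out an array of the group not compared gave the same fit as the compared groups alone, so these alternatives are not separate. Promoter sequences are RefSeq's (GRCm38.p6).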

Additional observations from a re-analysis of the deposited data

Results flagged for a closer look

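Signal outside the main measurement came from 3 probe sets annotated to 4 genes of the A1 group (Bcl2a1a to Bcl2a1d) at once, which were left out of the tests because no single gene can be named for them. A1 proteins are guardians of the BCL2 family that NOXA binds. Probe set 10587683 read 7.31 and 7.69 on the naive arrays, 8.04 and 7.58 on the IL-2 arrays and 8.45 and 8.52 on the IL-12 arrays. The IL-12 mean exceeded the naive mean by 0.99 on the log2 scale. Probe set 10595633 had an excess of 0.83 and probe set 10587690 one of 0.69. The 3 probe sets were flagged because both IL-12 arrays lay above both naive arrays, so that separation follows from the choice. Both IL-12 arrays also lay above the IL-2 arrays, while the naive and IL-2 arrays overlapped. Among all tested genes, 79.2% had groups that did not overlap between IL-12 and naive cells, and 69.5% between IL-12 and IL-2 cells. The probe sets share the same 4 genes and are not separate observations. Bcl2a1c also had a probe set of its own, which fell short of the filter. It read 5.80 and 5.89 in naive, 6.30 and 6.38 in IL-2 and 6.80 and 7.07 in IL-12 cells, with no overlap between groups. These differences were not tested.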

How the results depend on the processing

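The number of members called moved by more than 1.5 times under few settings. With a filter at the 75th percentile, which left 5 members in the test, it was 2 instead of 4 for IL-12 against IL-2 cells and 4 instead of 7 in both comparisons with naive cells. Leaving out 1 array gave 1 to 5 members for IL-12 against IL-2 cells (1 without IL-2 replicate 2, 2 without IL-12 replicate 2), 4 to 7 for IL-2 against naive cells (4 without IL-2 replicate 1) and 4 to 6 for IL-12 against naive cells (4 without IL-12 replicate 1). Over all tested genes, the 2321 calls between IL-12 and IL-2 cells became 3839 with array weights, 3533 with the compared groups alone and 737 to 3533 without 1 array. The 5095 calls between IL-2 and naive cells became 3341 to 5786 without 1 array, and the 6454 between IL-12 and naive cells 5081 to 6844. Centring each array on its median shifted the median of all genes by 0.10 for IL-2 and 0.12 for IL-12 against naive cells. The share of calls that were higher went from 56.4% to 67.8% and from 54% to 64%. Of the members called, 1 of 4 (IL-12 against IL-2), 3 of 7 (IL-2 against naive) and 4 of 7 (IL-12 against naive) kept the call under every alternative in which they were tested, and none reversed. Of other named genes called, 6 of 15, 11 of 21 and 22 of 28 did. The excess of Bcl2 over Bcl2l11 differed between IL-12 and IL-2 cells by -0.97 to -0.80 without 1 array. The deviations of arrays with the same number correlated across genes at 0.02 (naive with IL-2), -0.02 (naive with IL-12) and 0.15 (IL-2 with IL-12). The labels do not say that a number marks a shared mouse or day, so the numbers were not taken to pair the samples. With a replicate block 2414, 5128 and 6471 genes and 4, 6 and 7 members were called in the comparisons IL-12 against IL-2, IL-2 against naive and IL-12 against naive. The cause of these changes was not tested.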
